A study of Mus musculus with 9 samples.

Results

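Fat replaces secretory tissue in many damaged salivary glands, and the 10 genes described here were chosen as a readout of it: *Adipoq*, *Lep*, *Cfd*, *Plin1*, *Plin4*, *Cidec*, *Fabp4*, *Car3*, *Lpl* and *Pparg*, all abundant in mature adipocytes. They were chosen by name from knowledge of the fat cell, not by their levels, with earlier results of these data already known. They make up 10 of the 54532 gene identifiers in the count table. The libraries came from submandibular glands of wild-type (WT) mice that had all received 10 Gy of radiation, with RNA from sections 50 µm thick. The groups are glands taken 30 days, 60 days and 90 days after irradiation, with 3 samples in each. No strain, age, sex or part of the body irradiated is given in the labels, non-irradiated glands were not analysed here, and time since irradiation cannot be told apart from age. Nothing in the labels says that the samples of a group are separate animals, so p-values measure the spread between these samples.

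A mature white adipocyte stores triglyceride in a large lipid droplet. PPARγ, with C/EBP factors, drives its differentiation. Perilipins and CIDEC coat and enlarge the droplet, lipoprotein lipase and FABP4 supply and carry fatty acids, and adiponectin, leptin and adipsin are secreted. Some of these genes are restricted to fat cells, above all *Adipoq*, *Plin1*, *Cidec* and *Lep*, whereas *Fabp4*, *Lpl* and *Pparg* are also transcribed in capillary endothelium, macrophages or other cells.

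Library totals ran from 16541396 to 26065856 counts and were lower at 30 days than later in every library. Acinar *Mucl2* took 37.1% to 42.8% of counts at 30 days, 32.8% to 39.6% at 60 days and 31.4% to 38.6% at 90 days. The acinar gene *Mucl2* and the duct gene *Klk1* led their marker lists, as the tissue label implies. Levels below are CPM, the counts of a gene scaled to a common library total, after TMM (trimmed mean of M-values) scaling, and a floor of 3 counts was worth 0.101 to 0.213 CPM, depending on the library. Of the 15224 genes with enough counts to test, 544 differed between 90 and 30 days at an adjusted p under 0.05 (275 higher, 269 lower), 238 between 60 and 30 days and 39 between 90 and 60 days. Under library-size scaling, which moved the median of all genes by 0.24 on the log2 scale at 90 against 30 days, 92.3% of the calls of that contrast were higher, against 50.6% with TMM.

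No fat-cell gene passed the test for a change with time after irradiation. A low-count filter left 6 of the 10 genes for testing (*Plin4*, *Fabp4*, *Pparg*, *Cfd*, *Car3* and *Lpl*), and edgeR's quasi-likelihood test called 0 of the 6 in each contrast and in the test of any difference among the days. Among all genes tested the share called was 1.56% between 60 and 30 days, 0.256% between 90 and 60 days, 3.57% between 90 and 30 days and 3.29% for any difference, so that a count of 0 among 6 is near the background. At an unadjusted p under 0.05 the count was 0 between 60 and 30 days, 0 between 90 and 60 days, 0 for any difference and 2 between 90 and 30 days (*Plin4* and *Lpl*). The shares of all genes tested that passed were 12.4%, 10.8%, 16.7% and 16.8% in that order. DESeq2 and limma-voom also called 0 of these genes. The median log2 fold change of the 6 was -0.21 at 60 against 30 days, 0.09 at 90 against 60 days and -0.29 at 90 against 30 days, against -0.00, 0.00 and 0.01 over all genes tested. In bulk tissue, fewer cells of a type and less RNA per cell cannot be told apart.

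The 4 most fat-restricted genes mostly stood at or near the counting floor, but all 4 were above it in 30-day sample 2. *Adipoq* (ENSMUSG00000022878, chr16:23146536-23158028, GRCm38, plus strand) encodes adiponectin, a hormone made by mature adipocytes. It had 0, 23 and 1 counts in the 30-day libraries 1, 2 and 3, then 12, 1 and 0 at 60 days, and 6, 4 and 3 at 90 days. In CPM this was 0, 1.37 and 0.0592 at 30 days, 0.518, 0.0452 and 0 at 60 days, and 0.202, 0.137 and 0.151 at 90 days. The 30-day group held both the highest library and one at 0, and the 90-day libraries lay between them.

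*Plin1* (chr7:79720218-79732903, minus strand) encodes perilipin 1, the coat protein that guards the droplet from lipases. Its counts were 0, 6 and 1 at 30 days, 0, 0 and 9 at 60 days, and 1, 6 and 0 at 90 days. The 3 groups overlapped, each with a library at 0.

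*Cidec* (chr6:113424634-113435760, minus strand) encodes a protein that fuses droplets into a single large one. Its counts were 0, 13 and 2 at 30 days, 4, 3 and 5 at 60 days, and 6, 10 and 3 at 90 days. *Lep* (chr6:29060220-29073877, plus strand) encodes leptin, the satiety hormone. Its counts were 0, 4 and 0 at 30 days, 0 in all 3 libraries at 60 days, and 1, 3 and 2 at 90 days. Both genes had their highest level in 30-day sample 2 (0.773 CPM for *Cidec* and 0.238 CPM for *Lep*) and neither had a count in 30-day sample 1.

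Across these 4 genes and 9 libraries, 23 of 36 values were at or under 3 counts and 12 were 0. Summed over the 4 genes, the level in the 30-day libraries was 0 CPM (exact 95% Poisson interval 0 to 0.261), 2.73 CPM (2.00 to 3.65) and 0.237 CPM (0.0645 to 0.606). At 60 days it was 0.691 CPM (0.395 to 1.12), 0.181 CPM (0.0493 to 0.463) and 0.584 CPM (0.319 to 0.980). At 90 days it was 0.472 CPM (0.258 to 0.792), 0.791 CPM (0.501 to 1.19) and 0.402 CPM (0.173 to 0.791). These intervals cover counting error only. The spread was widest within the 30-day group, whose extremes enclosed all 6 later libraries, and the 2 later groups overlapped. The mean sum was 0.990 ± 1.51 CPM (SD, n = 3) at 30 days, 0.485 ± 0.269 CPM (n = 3) at 60 days and 0.555 ± 0.207 CPM (n = 3) at 90 days. A single library set the 30-day mean, which was 0.118 CPM without sample 2 and 1.49 CPM without sample 1. The summed counts of the groups were 50, 34 and 45.

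**Figure D1:**
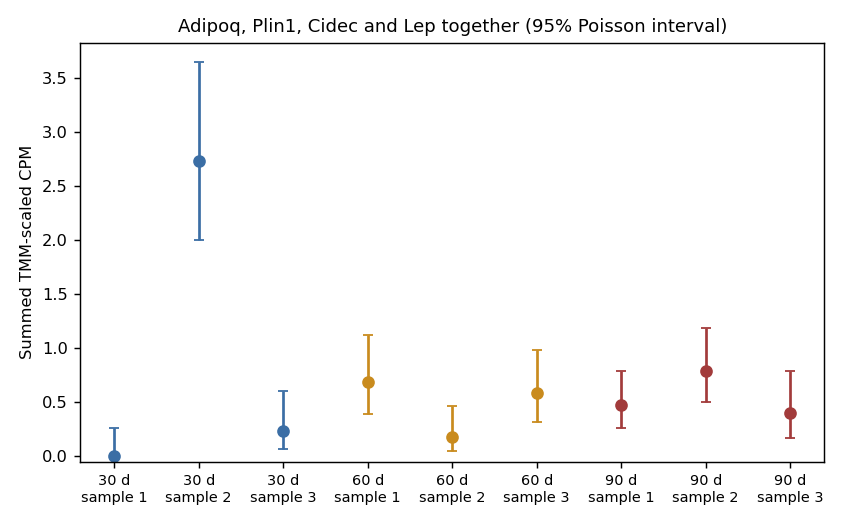
Summed TMM-scaled CPM of *Adipoq*, *Plin1*, *Cidec* and *Lep* (y axis) in each of the 9 libraries (x axis, day and sample number), with exact 95% Poisson intervals that cover counting error only. The level was 2.73 CPM in 30-day sample 2, 0 CPM in 30-day sample 1 and at most 0.791 CPM in the 60-day and 90-day libraries.

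Control regions of the adipocyte genes were searched for the letters of C/EBP-type and PPAR-type sites. A C/EBP gene, *Cebpd*, moved with time, and a link between it and these genes was not tested. RefSeq windows (GRCm38.p6) of 250 bases before a start site were found for 7 of the 10 genes, as 10 windows. The letters TTGCNNAA, searched on both strands, were present in 4 of the 10 windows and in 9.564% of all 32851 windows of the same length. The PPAR-type direct repeat DR1, AGGTCA repeated after 1 base, was in 0 of the 10 windows and in 0.03348% of all, and AGGTCA alone, which overlaps every such repeat, was in 2 of the 10 (both of *Pparg*) and in 14.02% of all. The 4 windows with a C/EBP-type match, a choice made after the matches were known, follow 5′ to 3′ on the gene's strand, with the matching letters in capitals; a match is a description of these letters and not a binding site.
Cidec (chr6:113434765-113435014, minus strand): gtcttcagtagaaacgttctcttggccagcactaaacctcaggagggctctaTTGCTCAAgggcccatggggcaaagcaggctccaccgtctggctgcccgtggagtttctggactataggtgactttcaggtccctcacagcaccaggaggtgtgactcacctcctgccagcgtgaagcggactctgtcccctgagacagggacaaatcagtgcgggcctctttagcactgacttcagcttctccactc
Lep (chr6:29059971-29060220, plus strand): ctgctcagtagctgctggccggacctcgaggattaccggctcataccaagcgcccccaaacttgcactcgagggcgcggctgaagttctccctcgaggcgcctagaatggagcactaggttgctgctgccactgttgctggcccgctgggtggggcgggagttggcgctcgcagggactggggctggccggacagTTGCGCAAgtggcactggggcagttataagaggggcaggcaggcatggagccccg
Plin1 (chr7:79732777-79733026, minus strand): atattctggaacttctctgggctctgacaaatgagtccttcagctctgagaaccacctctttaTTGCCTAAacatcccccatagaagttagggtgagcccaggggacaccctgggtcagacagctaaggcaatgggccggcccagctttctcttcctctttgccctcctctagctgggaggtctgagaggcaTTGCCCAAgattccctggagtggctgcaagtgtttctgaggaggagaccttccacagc
Pparg (chr6:115421816-115422065, plus strand): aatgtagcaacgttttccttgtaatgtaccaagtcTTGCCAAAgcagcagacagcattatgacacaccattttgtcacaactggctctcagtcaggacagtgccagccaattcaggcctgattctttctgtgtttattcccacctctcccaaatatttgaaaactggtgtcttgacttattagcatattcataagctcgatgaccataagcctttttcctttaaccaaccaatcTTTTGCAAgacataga
Counted from the start site, the first base of the match lay at -198 in *Cidec* and at -55 in *Lep*. *Plin1* held matches at -187 and -58, and *Pparg*, in the most downstream of its 3 windows, at -215 and -16.

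*Cfd* and *Car3*, which are among the most abundant mRNAs of white fat, were likewise high in 1 library and absent from another. *Cfd* (chr10:79890853-79892655, plus strand) encodes adipsin, the complement factor D secreted by adipocytes. Its level was 0, 3.80 and 0.888 CPM at 30 days, 0.734, 0 and 1.21 CPM at 60 days, and 0.472, 0.378 and 0.753 CPM at 90 days. *Car3* (chr3:14863512-14872523, plus strand) encodes carbonic anhydrase 3, found in fat and in slow skeletal muscle. Its level was 0, 6.84 and 1.07 CPM at 30 days, 0.863, 0.136 and 1.42 CPM at 60 days, and 1.18, 0.791 and 0.853 CPM at 90 days. For both genes the 30-day samples 1 and 2 were the lowest and the highest or tied for it, and the groups overlapped.

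The log2 fold change at 90 against 30 days was -1.59 ± 1.27 (SE) for *Cfd* (edgeR adjusted p = 0.612) and -1.49 ± 1.25 for *Car3* (adjusted p = 0.638). The 95% interval was -4.51 to 1.33 for *Cfd* and -4.45 to 1.47 for *Car3*. These intervals reached further down than up, and neither a large fall nor a smaller rise was excluded. Without 30-day sample 2 the sign turned, to 0.18 for *Cfd* and 0.76 for *Car3*. At 60 against 30 days the values were -1.27 ± 1.25 for *Cfd* (adjusted p = 0.751) and -1.71 ± 1.28 for *Car3* (adjusted p = 0.667), and without 30-day sample 2 they were 0.49 and 0.54.

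In 30-day sample 1 all 6 of the low genes (*Adipoq*, *Plin1*, *Cidec*, *Lep*, *Cfd* and *Car3*) had 0 counts, and in 30-day sample 2 5 of the 6 had their highest level, with *Plin1* highest in 60-day sample 3. Of 21 further adipocyte markers, 7 were at 0 in 30-day sample 1, against 2 to 8 in the other libraries, and 4 had their highest level in 30-day sample 2, against 0 to 4 in the others, so that this wider list did not single out either library. Of 2 of these genes, chosen after their values were seen, *Retn*, which encodes resistin, had 0, 6 and 1 counts at 30 days, 0, 0 and 6 at 60 days and 2, 2 and 3 at 90 days. *Pck1*, an enzyme of glyceroneogenesis, had 0, 21 and 8 counts at 30 days, 1, 0 and 12 at 60 days and 2, 0 and 0 at 90 days. Both were at 0 in 30-day sample 1, where *Thrsp* and *Mrap*, also chosen after their values were seen, had 30 and 5 counts and their highest CPM of the 9 libraries. That library also had the highest *Mucl2* share (42.8% of counts) and the lowest TMM factor (0.824), and the part of these in the zeros was not tested. Skeletal muscle markers summed to 3.26 CPM in 30-day sample 1 and 2.26 CPM in 30-day sample 2, with 1 of 10 at 0 in all libraries. *Ckm* alone stood at 2.20 CPM in 30-day sample 1 and 1.13 CPM in 30-day sample 2. *Acta1*, *Mb* and *Myh1* were also lower in 30-day sample 2, whereas *Mylpf*, *Tnnt3*, *Actn3* and *Tnni2* were higher there. Endothelial markers summed to 89.6 and 94.2 CPM in those libraries, macrophage markers to 195 and 293 CPM, and fibroblast markers to 348 and 419 CPM.

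The more widely expressed genes were present in every library. *Fabp4* (chr3:10204088-10208576, minus strand) encodes the fatty acid carrier of adipocytes, which capillary endothelium and macrophages also make. Its level was 8.15, 9.87 and 8.64 CPM at 30 days, 11.1, 7.24 and 9.10 CPM at 60 days, and 9.24, 10.0 and 8.73 CPM at 90 days. The groups overlapped, with the 60-day group holding both the highest and the lowest library. The means were 8.89 ± 0.883, 9.14 ± 1.93 and 9.32 ± 0.639 CPM (SD, n = 3) at 30, 60 and 90 days. The log2 fold change at 90 against 30 days was 0.07 ± 0.17 (edgeR adjusted p = 0.898), with a 95% interval of -0.29 to 0.43. Within the 30-day group *Fabp4* was lowest in sample 1 and highest in sample 2, but 60-day sample 1 and 90-day sample 2 were higher still. Endothelial markers summed to 89.6 to 99.5 CPM at 30 days, 78.2 to 88.4 CPM at 60 days and 91.3 to 115 CPM at 90 days, and their part in the *Fabp4* level was not tested.

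*Lpl* (chr8:68880491-68907448, plus strand) encodes lipoprotein lipase, which releases fatty acids from circulating triglyceride and is made by fat, muscle and macrophages. Its level was 14.6, 20.9 and 23.1 CPM at 30 days, 21.8, 25.6 and 21.1 CPM at 60 days, and 24.0, 24.6 and 27.8 CPM at 90 days. The 90-day libraries were all above the 30-day libraries, while the 60-day group overlapped both. The means were 19.5 ± 4.41, 22.8 ± 2.47 and 25.5 ± 2.05 CPM (SD, n = 3). At 90 against 30 days the log2 fold change was 0.38 ± 0.15 with a 95% interval of 0.07 to 0.68, which did not pass the threshold (edgeR adjusted p = 0.187). Among all genes tested 23.2% had 30-day and 90-day groups that did not overlap, 11.4% with the later day higher and 11.8% with it lower. Macrophage markers summed to 195 to 353 CPM at 30 days, 241 to 268 CPM at 60 days and 266 to 442 CPM at 90 days, and their part in the *Lpl* level was not tested. Of 14 genes listed as LPL partners or for fatty acid uptake, 10 were tested. The edgeR test called 0 of the 10 in each contrast and for any difference. At an unadjusted p under 0.05 there were 1, 2, 3 and 4 for 60 against 30, 90 against 60, 90 against 30 days and any difference. The shares of all genes tested that passed were 12.4%, 10.8%, 16.8% and 16.7% in that order.

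*Plin4* (chr17:56100591-56109803, minus strand) encodes a perilipin that coats small, newly formed droplets. Its level was 2.34, 2.97 and 2.96 CPM at 30 days, 2.50, 1.49 and 2.04 CPM at 60 days, and 1.89, 1.65 and 1.71 CPM at 90 days. All 90-day libraries were below all 30-day libraries, with means of 1.75 ± 0.124 and 2.76 ± 0.362 CPM (SD, n = 3). Their log2 difference of -0.66 ± 0.29, with a 95% interval of -1.27 to -0.05, did not pass the threshold (edgeR adjusted p = 0.259). Exons of *Plin4* overlap *Hdgfl2* on the opposite strand, and whether counting used strand is not given in the sources used here, so reads of the 2 genes may be mixed.

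*Pparg* (chr6:115360951-115490399, plus strand) encodes PPARγ, the nuclear receptor that drives fat cell differentiation. Its level was 0.284, 0.654 and 1.18 CPM at 30 days, 0.518, 0.543 and 1.17 CPM at 60 days, and 0.742, 1.31 and 0.402 CPM at 90 days. Each group spanned more than the difference between any of the means, which were 0.707 ± 0.453, 0.743 ± 0.369 and 0.816 ± 0.457 CPM (SD, n = 3). The log2 fold change at 90 against 30 days was 0.21 ± 0.58 (edgeR adjusted p = 0.907), with a 95% interval of -1.0 to 1.42.

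**Figure D2:**
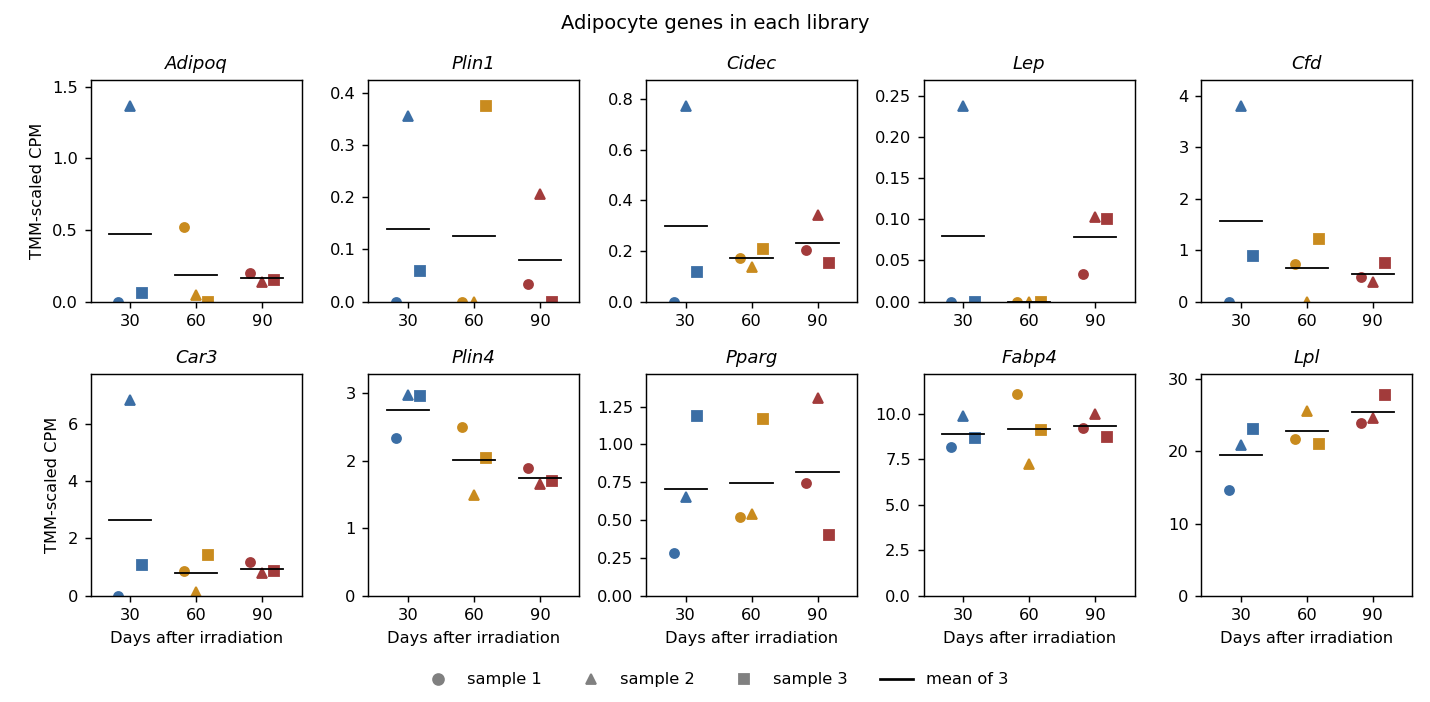
TMM-scaled CPM (y axis, from 0, a scale for each gene) of the 10 adipocyte genes by days after irradiation (x axis), with a point for each library shaped by sample number, and a line at the mean of the 3 libraries. The 30-day points of *Adipoq*, *Cidec*, *Lep*, *Cfd* and *Car3* spread from 0 to the highest level of all 9 libraries, whereas the *Lpl* points at 90 days, 24.0 to 27.8 CPM, all lie above those at 30 days.

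Per kilobase of the principal transcript, the order of mean levels over the 9 libraries was *Fabp4* (10.2 CPM per kb), *Lpl* (5.49), *Cfd* (0.993), *Car3* (0.870), *Pparg* (0.428), *Plin4* (0.378), *Adipoq* (0.213), *Cidec* (0.136), *Plin1* (0.0407) and *Lep* (0.0162), all in CPM per kb. *Fabp4* lay above *Lpl* in every library, and *Lpl* above each of the other 8. Below *Lpl*, the SD of a gene at 30 days mostly exceeded the gap to its neighbour, as for *Cfd* (1.70 ± 2.16 CPM per kb, n = 3) and *Car3* (1.57 ± 2.19 CPM per kb, n = 3), so the order of these neighbours was not resolved. Per length, the means of the fatty acid carrier and the lipase stood well above those of the hormones and droplet proteins of the mature fat cell. In 30-day sample 2, however, *Lpl* (5.08 CPM per kb) lay close above *Cfd* (4.13) and *Car3* (4.07).

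Other adipocyte lists held few or no calls. Of 21 further adipocyte markers 10 were tested and 0 were called in any contrast or in the test of any difference, with 0, 2, 3 and 3 at an unadjusted p under 0.05 for 60 against 30, 90 against 60, 90 against 30 days and any difference, where 12.4%, 10.8%, 16.8% and 16.7% of all genes tested passed. Of 10 brown and beige fat genes 7 were tested. *Ucp1*, the uncoupling protein that defines thermogenic fat and was looked at after its values were seen, had 0 counts in all 9 libraries. Of 15 genes of fat cell precursors 14 were tested, and *Cebpd* alone was called, higher at 60 than at 30 days, where 1.14% of all genes tested were called higher, and in the test of any difference (3.29%).

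Genes of fatty acid metabolism outside the fat-cell set did change. *Fasn*, *Acacb* and *Acly* of fatty acid synthesis fell by 90 days, *Mgll* and *G0s2* of the lipolysis list rose, and the regulators *Cebpd*, *Ppargc1a* and *Adrb1* each moved in a contrast. These genes are also active in epithelial and other cells, and bulk RNA does not say which cells held the transcripts. Of 17 synthesis genes 15 were tested and 3 were called at 90 against 30 days, all lower (1.77% of all genes tested were called lower), with a median log2 fold change of -0.31 against 0.01 for all genes. Of 14 genes of lipolysis and fatty acid oxidation 13 were tested; 2 were called higher at 90 against 30 days (1.81% of all genes tested) and 1 at 60 against 30 days (1.14%), with medians of 0.03 and 0.19.

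*Fasn*, the fatty acid synthase, stood at 142, 96.2 and 142 CPM at 30 days, 80.5, 81.0 and 107 CPM at 60 days, and 63.6, 74.2 and 72.7 CPM at 90 days. *Acly*, which makes cytosolic acetyl-CoA, stood at 289, 237 and 281 CPM at 30 days, 202, 206 and 248 CPM at 60 days, and 179.9, 162 and 185 CPM at 90 days. *Acacb*, the acetyl-CoA carboxylase whose product restrains mitochondrial fatty acid entry, stood at 114, 76.9 and 86.6 CPM at 30 days, 80.7, 73.4 and 66.7 CPM at 60 days, and 55.3, 55.3 and 58.2 CPM at 90 days. In all 3 genes every 90-day library lay below every 30-day library, as in 11.8% of all genes tested. The log2 fold changes at 90 against 30 days were -0.85 ± 0.15 for *Fasn* (edgeR adjusted p = 0.00416), -0.61 ± 0.12 for *Acly* (adjusted p = 0.00549) and -0.72 ± 0.13 for *Acacb* (adjusted p = 0.00321). Under library-size scaling the direction held and the calls were lost: -0.62 (adjusted p = 0.0658), -0.39 (adjusted p = 0.178) and -0.47 (adjusted p = 0.0777) for *Fasn*, *Acly* and *Acacb*, where the median of all genes stood at 0.24. The *Mucl2* share of counts, given above by day, also had its highest library at 30 days and its lowest at 90 days, and its part was not tested. Of 8 acinar markers 7 were tested at 90 against 30 days, and 6 were lower. Of these, 2 were called (*Aqp5* and *Chrm3*), where 1.77% of all genes tested were called lower. The acinar median was -0.42, against 0.01 for all genes tested. All 10 duct markers were tested and 9 were higher, with a median of 0.17. Of these, 2 were called, where 1.81% of all genes tested were called higher. Among them, *Egf* rose from 1325 ± 460 CPM (SD, n = 3) at 30 days to 5639 ± 1426 CPM at 90 days. The part of these shifts in the lipid genes described here was not tested.

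*Lpin1*, a phosphatidate phosphatase of triglyceride synthesis, stood at 109, 75.4 and 81.1 CPM at 30 days, 87.8, 101 and 90.3 CPM at 60 days, and 67.1, 58.5 and 68.2 CPM at 90 days. It passed the test of any difference (edgeR adjusted p = 0.0409) and no single contrast (90 against 60 days -0.52 ± 0.12, adjusted p = 0.0915). Its call was lost under library-size scaling (adjusted p = 0.381), with limma-voom (0.0621), and without 60-day sample 2 (0.125), 90-day sample 1 (0.0784), 90-day sample 2 (0.216) or 90-day sample 3 (0.107).

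*Mgll*, monoacylglycerol lipase, which completes triglyceride breakdown, stood at 84.6, 97.4 and 103 CPM at 30 days, 151, 139 and 144 CPM at 60 days, and 143, 144 and 186 CPM at 90 days. All 6 later libraries lay above the 30-day group. Among all genes tested, 11.4% had every 90-day library above the 30-day group. *Mgll* rose by 0.73 ± 0.12 on the log2 scale at 90 against 30 days (edgeR adjusted p = 0.00156) and 0.61 ± 0.12 at 60 against 30 days (adjusted p = 0.0105). The earlier call was lost without 30-day sample 1 (adjusted p = 0.0755) or 60-day sample 2 (adjusted p = 0.0521), and exons of *Mgll* overlap a gene model, *Gm26588*, on the opposite strand.

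*G0s2*, an inhibitor of the lipase ATGL, stood at 78.8, 84.2 and 77.3 CPM at 30 days, 91.8, 78.1 and 63.6 CPM at 60 days, and 109.9, 115 and 113 CPM at 90 days. Its 90-day libraries lay above all others, where 11.4% of all genes tested had every 90-day library above the 30-day group. The rise was 0.49 ± 0.12 at 90 against 30 days (edgeR adjusted p = 0.0211). With each library left out it stayed between 0.46 and 0.53, but its adjusted p passed 0.05 without 30-day sample 1 (adjusted p = 0.0906), 2 (0.0578) or 3 (0.0697) and without 90-day sample 2 (0.0946) or 3 (0.0787). *Mgll* and *G0s2* act in opposite directions on lipolysis, and both were higher at 90 days.

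*Cpt1a*, which admits fatty acids to mitochondria, stood at 117, 113 and 115 CPM at 30 days, 134, 139 and 127 CPM at 60 days, and 108, 93.1 and 95.3 CPM at 90 days. The 60-day libraries were the highest, a pattern not counted over all genes. It passed the test of any difference (edgeR adjusted p = 0.0411) and no single contrast (90 against 60 days -0.44 ± 0.10, adjusted p = 0.0669). That call was lost under library-size scaling (adjusted p = 0.480), without 30-day sample 1 (0.0696), 2 (0.0926) or 3 (0.0549), without 60-day sample 1 (0.0547) or 2 (0.179), and without 90-day sample 2 (0.172) or 3 (0.157).

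**Figure D3:**
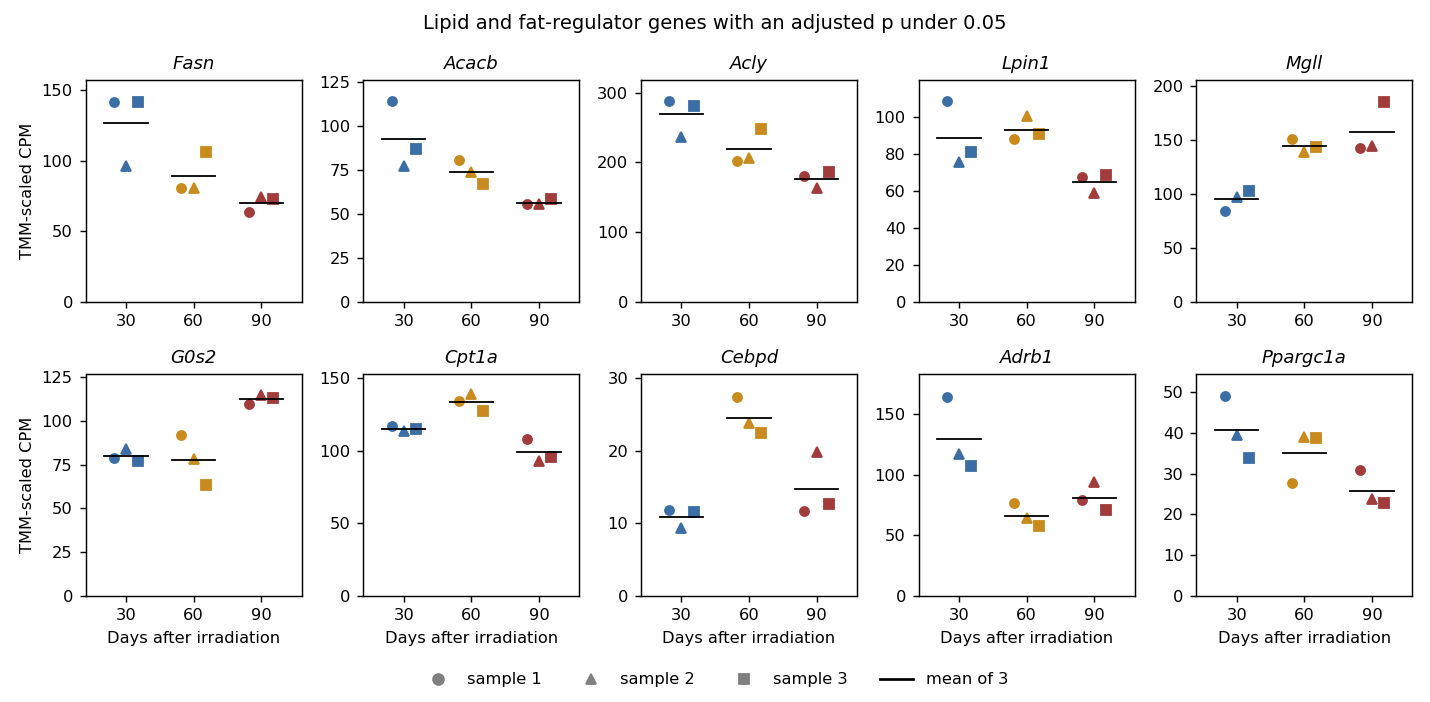
TMM-scaled CPM (y axis, from 0, a scale for each gene) of the lipid and fat-regulator genes with an adjusted p under 0.05 in a contrast or in the test of any difference, by days after irradiation (x axis), with a point for each library and a line at the mean of the 3 libraries. *Fasn* falls from 96.2 to 142 CPM at 30 days to 63.6 to 74.2 CPM at 90 days, and *Mgll* rises from 84.6 to 103 CPM to 143 to 186 CPM.

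*Cebpd* encodes C/EBPδ, an early factor of fat cell differentiation that is also induced in inflammation and stress. Its level was 11.8, 9.33 and 11.5 CPM at 30 days, 27.5, 23.8 and 22.4 CPM at 60 days, and 11.7, 19.8 and 12.6 CPM at 90 days. All 60-day libraries lay above all others, a pattern not counted over all genes. At 60 against 30 days it rose by 1.18 ± 0.18 on the log2 scale (edgeR adjusted p = 0.00219), called under all 17 alternatives, and *Pparg*, which acts after it in adipogenesis, stood at 0.05 ± 0.59 in the same contrast (adjusted p = 0.986; 95% interval -1.17 to 1.28). Exons of *Cebpd* overlap *Spidr* on the opposite strand.

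*Ppargc1a*, the coactivator PGC-1α of mitochondrial biogenesis, was the 1 brown and beige gene called of 7 tested, lower at 90 than at 30 days, where 1.77% of all genes tested were called lower. Its level was 49.2, 39.5 and 33.9 CPM at 30 days, 27.7, 39.0 and 38.8 CPM at 60 days, and 30.8, 23.8 and 22.7 CPM at 90 days. The log2 fold change at 90 against 30 days was -0.66 ± 0.16 (edgeR adjusted p = 0.0373). The call was lost under library-size scaling (-0.41, adjusted p = 0.228), and without 30-day sample 1 (0.171), 30-day sample 2 (0.0939), 90-day sample 2 (0.171) or 90-day sample 3 (0.151).

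Of 16 receptors and cofactors for adipokine and lipid signals all were tested, and *Adrb1*, the β1-adrenergic receptor, was the 1 called, lower at 60 and at 90 than at 30 days (0.427% and 1.77% of all genes tested were called lower). Its level was 164, 117 and 107 CPM at 30 days, 76.4, 64.2 and 57.2 CPM at 60 days, and 79.2, 93.7 and 70.6 CPM at 90 days. Every later library lay below the 30-day group, where 11.8% of all genes tested had every 90-day library below it. The log2 fold change of *Adrb1* was -0.97 ± 0.16 at 60 against 30 days (edgeR adjusted p = 0.00593). It was -0.95 without 60-day sample 2, where the call was lost (adjusted p = 0.0523). At 90 against 30 days it was -0.67 ± 0.16 (adjusted p = 0.0304), a call lost under library-size scaling (-0.41, adjusted p = 0.169), in a fit of those 6 samples alone (0.0522), and without 30-day sample 1 (-0.46, 0.117), 60-day sample 2 (0.0525), 90-day sample 1 (0.0756) or 90-day sample 3 (0.127).

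**Figure D4:**
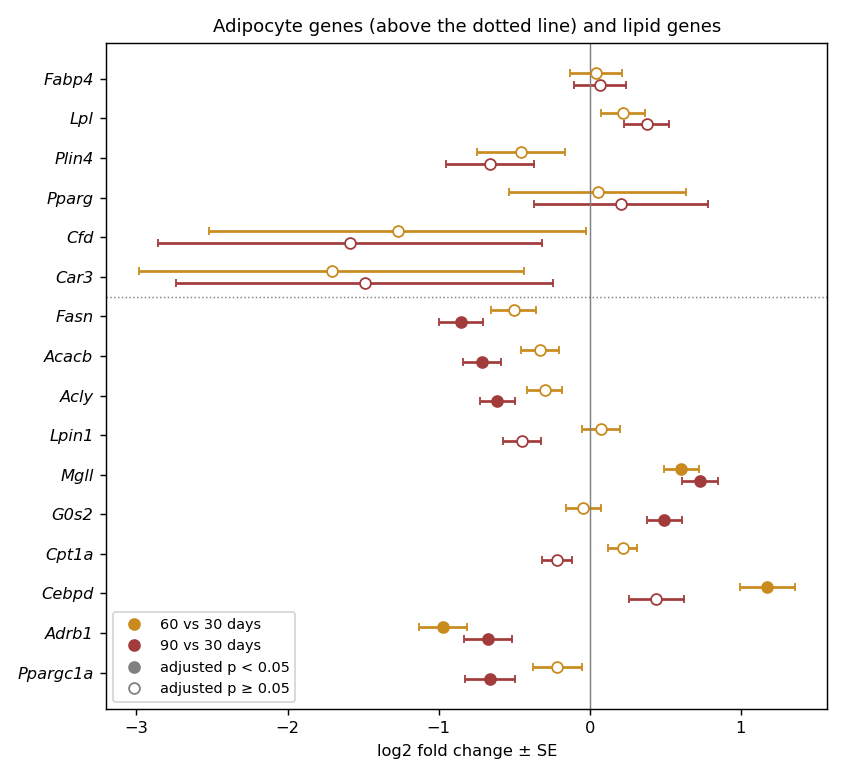
Log2 fold change and SE (x axis) of the 6 tested adipocyte genes, above the dotted line, and the named lipid genes, below it. Each contrast with 30 days has its own colour, and filled points have an adjusted p under 0.05. All points of the adipocyte genes are open. The bars of *Cfd* and *Car3* are wide, with SEs of 1.25 to 1.28 for the contrasts with 30 days.

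The genes whose level over the 9 libraries was most like the summed level of *Adipoq*, *Plin1*, *Cidec* and *Lep* were ranked with the 10 adipocyte genes left out. By Pearson r of log2 CPM with the log2 sum (plus 0.1), given as a description over libraries that share depth and group, they were *Ovca2* (0.94), *Rabif* (0.93), *Ahi1* (0.90), *Gm37755* (0.89), *Cbfa2t3* (0.89), *Dhdh* (0.88), *Fstl3* (0.88), *Pcdhb16* (0.88), *Smug1* (0.87) and *Wwtr1* (0.87), out of 15200 genes compared. None of these 10 stayed among the 10 most alike without 30-day sample 2, so membership of the list rests on that library. Their r without it ran from 0.77 (*Fstl3*, rank 645) to 0.93 (*Smug1*, rank 16). On the same measure, among the tested adipocyte genes, none of which is in the sum, r was 0.92 for *Car3*, 0.84 for *Cfd*, 0.68 for *Fabp4*, 0.42 for *Pparg*, 0.38 for *Lpl* and 0.22 for *Plin4*. Without 30-day sample 2 it was 0.86 for *Car3*, 0.74 for *Cfd*, 0.71 for *Fabp4*, 0.65 for *Lpl*, 0.61 for *Pparg* and -0.20 for *Plin4*. Those values still include 30-day sample 1, whose sum was 0 CPM. That library held the lowest or joint lowest level of *Car3*, *Cfd*, *Lpl* and *Pparg*, and r without it was not computed.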

How the data were processed

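RNA of 9 samples of irradiated submandibular gland was sequenced. The authors deposited whole-number read counts per gene for 54532 Ensembl identifiers; fastp, STAR, featureCounts and mm10 are named, without versions, per the submitters' processing notes, and the annotation and use of strand are not given in the sources used here. Columns were matched to samples by day and sample number, and 3 columns matching no listed sample were left out. Symbols were found for 54409 identifiers, and positions are from GENCODE M21 (GRCm38).

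Genes were filtered with filterByExpr (minimum count 10), which left 15224 of the 27001 with a count, and scaled with TMM. All 9 libraries were fitted together in edgeR 4.0.16 (R 4.3.3) with a term for the day, common biological coefficient of variation 0.150, using the robust quasi-likelihood test; p-values were adjusted by Benjamini-Hochberg across every gene tested, threshold 0.05. Intervals of log2 fold changes are 95%. Alternatives were other scalings, limma 3.58.1, DESeq2 1.42.0, other filters, fits of 6 samples, the replicate number as a block, and each library left out. Figures used matplotlib 3.10.9. Tested on simulated counts of 15224 genes for 90 against 30 days, the fit recovered 59% of genes given a log2 change of 1 and 90% of those given 2, while unchanged genes made up 6.29% of its calls. The changed genes were drawn at random from all genes tested. Recovery among genes of a few counts, such as *Cfd* and *Car3*, was not measured separately. *Adipoq*, *Plin1*, *Cidec* and *Lep* were below the filter.

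The members, the lists and the tests were chosen with earlier results of these data known. Named were the 10 adipocyte genes, every gene of a pathway list past the threshold, up to 6 a list, the 10 genes most like the summed level, and up to 3 abundant genes of a marker list. Totals of 16541396 to 26065856 counts limit precision for genes of a few counts.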

Additional observations from a re-analysis of the deposited data

How the results depend on the processing

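The count of adipocyte genes called was 0 in every contrast under every alternative tried and with each library left out. Without a filter on low counts *Adipoq*, *Plin1*, *Cidec* and *Lep* were tested too, and none was called. Of these, *Adipoq* stood at -1.51 for 90 against 30 days (edgeR adjusted p = 0.561).

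Counts over all genes moved more. Library-size scaling gave 90 calls for 60 against 30 days in place of 238 and 277 in place of 501 for any difference. DESeq2 gave 376 for 60 against 30 days, 150 for 90 against 60 days in place of 39, 867 for 90 against 30 days in place of 544 and 847 for any difference. With limma-voom there were 152 for 60 against 30 days and 333 for any difference, and with no filter 459, 354, 1045 and 1194. Leaving out each library gave 73 to 249, 16 to 101, 189 to 714 and 225 to 681. The lowest counts came without 60-day sample 2 (73), 90-day sample 2 (16) and 30-day sample 1 (189 and 225), and the highest without 60-day sample 3. Apart from the libraries left out, the cause was not tested.

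Signs turned for genes far from the threshold. With limma-voom *Cfd* stood at 0.83 for 90 against 60 days and *Car3* at 0.38 for 90 against 30 days. With each library left out the log2 fold change ran, for 60 against 30, 90 against 60 and 90 against 30 days, from -0.43 to 0.64, -0.36 to 0.64 and -0.30 to 0.79 for *Pparg*, from -2.07 to 0.49, -0.89 to 0.48 and -2.15 to 0.18 for *Cfd*, and from -2.39 to 0.54, -0.27 to 0.89 and -2.06 to 0.76 for *Car3*. For *Fabp4* it ran from -0.12 to 0.18 and from -0.11 to 0.19 for the first and the second of these contrasts.

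Of 9 pairs of samples with the same number, 1 had a correlation above 0.1, and the range was -0.06 to 0.19. Pairs with different numbers ran from -0.21 to 0.19. Among the samples, 4 of 9 correlated best with their own number, and whether the numbers mark a pairing was not settled. The replicate number as a block gave 92 calls over all genes for 90 against 60 days in place of 39. It gave 0 adipocyte genes in every contrast. Genes of a few counts per library are limited by depth.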
